A study of Mus musculus with 7 samples.

Results

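Cells of the caudal part of mouse embryos at embryonic day 9.5 (E9.5), sorted for an Osr1-GFP signal together with Integrin alpha 8 (Itga8) and without Pdgfra, were compared with cells of that region and stage that lacked the GFP signal. These are 2 of the 7 arrays of the study, 1 array a population, and they were taken by their sample titles. Both populations came from C57BL6J embryos that carried an Osr1-GFP knock-in, in which green fluorescent protein (GFP) reports the Osr1 locus. The labels do not say whether the knock-in allele was heterozygous or how many embryos were pooled. The gated cells are Osr1-GFP-positive, Itga8-positive and Pdgfra-negative, and the study's design text names this gate as an enrichment for nephron progenitors. GFP-negative cells are the cells of the caudal trunk that the sort kept without the GFP signal, so they are a mixture and not a single tissue. They leave out the GFP-positive cells outside the gate, which were sorted as a population of their own. From each population 10 ng of total RNA was amplified and hybridised with 1 dye (Cy3) to an Agilent mouse array. The other 5 arrays hold E8.5 cells with and without the GFP signal, the remaining GFP-positive cells of E9.5, and gated and remaining GFP-positive cells of E11.5. They are used here only for context.

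The kidney arises from the intermediate mesoderm, a strip between the somites and the lateral plate. Osr1 is one of its first transcription factors, and Wt1, Pax2, Pax8, Six2 and Eya1 act after it in the cells that will form the metanephric mesenchyme. Those cells secrete Gdnf, which signals through Ret and Gfra1 in the nephric duct and draws out the ureteric bud, and Fgf9 and Fgf20 keep the nephron progenitors alive. Itga8 is an integrin of that mesenchyme and binds nephronectin on the bud, whereas Pdgfra marks surrounding mesenchyme.

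With 1 array a population no test was possible, and precision is limited by how few arrays there are: every difference below is between 1 RNA sample and another, with an unknown spread between sorts. Levels are log2 of the spot signal minus that of the 75th percentile over the same array, so a level of 0 is the 75th percentile, and differences are gated minus GFP-negative. Both arrays lay on 1 slide, and the other 5 on another. Of the spots, 72.4% on the gated array and 73.8% on the GFP-negative array were well above background, and none was saturated. Over 55681 probes the levels of the arrays had a Pearson correlation of 0.961, and probes spotted 10 times gave a median standard deviation of a difference of 0.15 and 0.14 on the log2 scale, which covers spot noise alone. Where a gene was well above background on only 1 of the arrays, the dim side took either its own value or the lowest level well above background, whichever was higher (lowest levels -4.61 on the gated array and -4.43 on the GFP-negative array), and the fold is given as "at least".

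Most of the transcriptome was alike on the arrays. Of 27126 genes, 21492 were measured (well above background on at least 1 array), and 18894 of them (87.9%) lay within 2-fold, with a median difference of 0.01. Genes dim on 1 array whose bound lay under 2-fold are counted as within 2-fold, here and in the lists below, and their true fold may be larger. Over the 19209 genes well above background on both arrays the median was 0.02. At least 4-fold higher in gated cells were 256 genes, 1.19% of those measured, and 95 of these folds are bounds. At least 4-fold lower were 404 genes, 1.88%, with 187 bounds. Past 100-fold stood 2 genes on the higher side and 16 on the lower. The genes with the largest folds on the higher side included kidney and retinoid genes, and those on the lower side included globins and genes of the neural tube, somite, notochord and tail bud.

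**Figure D1:**
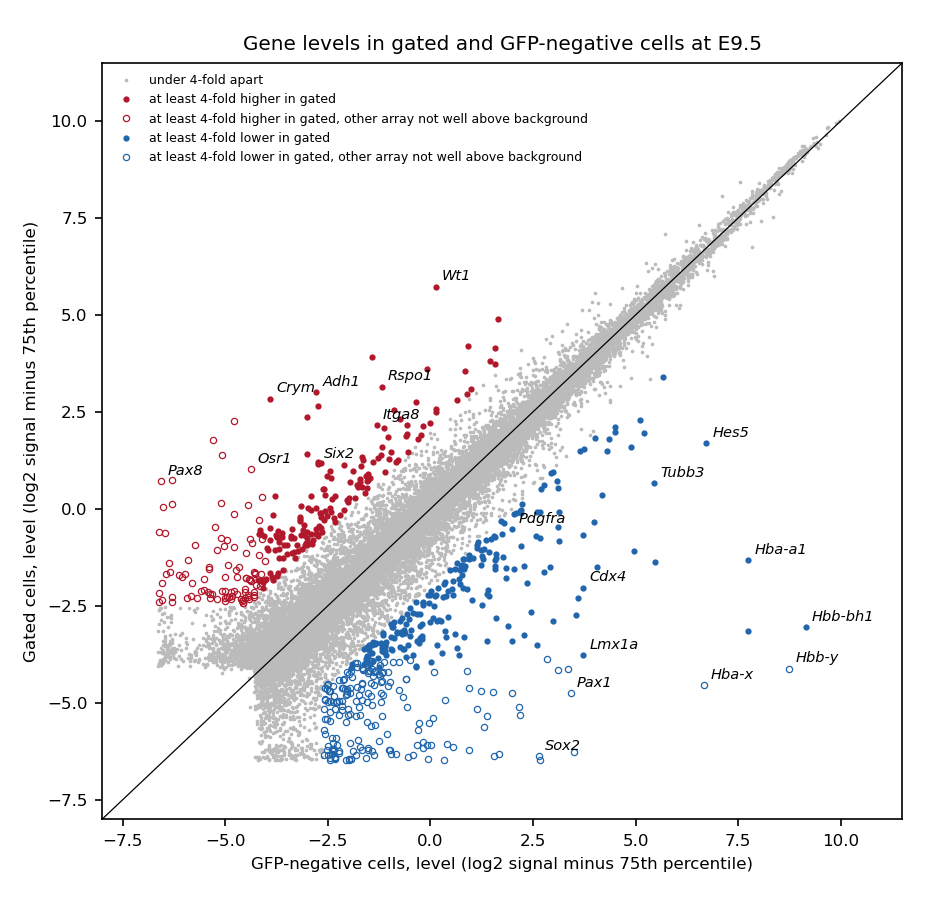
Level of each of the 21492 measured genes in gated cells (vertical axis) against GFP-negative cells (horizontal axis), as log2 signal minus the 75th percentile of the array, 1 array each. Red marks the 256 genes at least 4-fold higher in gated cells and blue the 404 lower; open circles had 1 array not well above background, and Hbb-y, Hbb-bh1 and Hba-x lie farthest from the diagonal.

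The genes used for the sort followed the gate. Osr1 (probe at chr12:9587390-9587449 of mm9, the build of the array design) stood at a level of 1.03 in gated cells and was not well above background in GFP-negative cells, where it stood at -4.38, so it was at least 42.5-fold higher. Itga8 was at 2.15 in gated cells and -1.31 in GFP-negative cells, a log2 difference of 3.46. Pdgfra, the receptor that the gate excludes, was at -0.52 in gated cells and 1.99 in GFP-negative cells, 5.71-fold lower. It remained well above background on the gated array. The levels of these 3 genes are what the sort used, on the protein or reporter side, and they check the labels only.

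Genes of the intermediate mesoderm were higher in gated cells as a list. Of 13 measured members, 7 were at least 2-fold higher and none was at least 2-fold lower, with a median difference of 1.14. Osr1, whose reporter the sort used, is one of the 7, and without it 6 of 12 were higher with a median of 0.94. Over all 21492 measured genes 5.67% were at least 2-fold higher in gated cells, 6.42% were at least 2-fold lower, and the median was 0.01, and every list below is read against these values. Wt1, a zinc-finger transcription factor needed for kidney and gonad, had a level of 5.73 in gated cells and 0.13 in GFP-negative cells, 48.3-fold higher. Its probe lies at chr2:105013656-105013715. Pax8, a paired-box factor of the early nephric lineage, was at 0.72 in gated cells and not well above background in GFP-negative cells (-6.56), at least 35.7-fold higher. Its partner Pax2 was at 2.32 against -0.75, an 8.44-fold difference. Pax8 and Pax2 were thus high on the gated array and low or dim on the other.

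Emx2, a homeobox factor of the urogenital ridge, was at -1.45 in gated cells and not well above background in GFP-negative cells (-4.94), at least 7.89-fold higher. Gata3, a zinc-finger factor of the nephric duct, was at -0.92 against -3.05, a 4.38-fold difference. Lhx1, a factor of duct and tubule, differed by 0.74 on the log2 scale and stayed under 2-fold. The members below 0 were Sim1 at -0.72, which stood at -2.71 in gated cells and -1.99 in GFP-negative cells, and Lmx1b at -0.46.

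The nephron progenitor list was mixed. Of its 27 measured members, 11 were at least 2-fold higher in gated cells and 3 were at least 2-fold lower, with a median of 0.71. Itga8, for which the sort selected, is one of the higher members, and without it 10 of 26 were higher with a median of 0.48. Crym, which encodes a thyroid-hormone-binding crystallin, had the largest difference of any gene measured on both arrays in this direction: its level was 2.84 in gated cells and -3.90 in GFP-negative cells, a log2 difference of 6.74. Six2, the homeobox factor that maintains nephron progenitors, was at 1.16 against -2.75, 15.1-fold higher, and 2 probes for it gave differences of 3.91 and 4.86. The phosphatase co-factor Eya4 was at -0.11 against -2.67, a 5.89-fold difference. The probe for Eya1, a better-known member of its family, gave levels of 8.80 in gated cells and 8.65 in GFP-negative cells, under 2-fold apart. It was bright on both arrays, above the median level of the housekeeping list on each. Whether this probe reports Eya1 was not tested, so its values do not show that Eya1 was alike in the populations. Sall1, a zinc-finger regulator of the same progenitors, was at 3.25 in gated cells and 2.54 in GFP-negative cells.

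Some genes known from nephron progenitors of the later kidney were lower in the gate at E9.5. Hoxd11, one of the Hox11 genes required for metanephric kidney, was at -1.19 in gated cells and 0.94 in GFP-negative cells, a difference of -2.13. Cited1, a transcriptional co-activator of cap mesenchyme, was at 3.18 against 4.62, and Spock2, a matrix proteoglycan, at -1.30 against 0.09. Hoxa11 showed no such size, with -0.03. Hoxc11 was not well above background in gated cells, so its -0.26 is a bound and its true difference may be larger. Meox1, a somite factor also found in early nephron progenitors, was at 5.75 in gated cells and 5.03 in GFP-negative cells.

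Markers of the nephric duct and of differentiated nephrons gave no shared direction. In the duct and ureteric bud list 2 of 16 measured members were at least 2-fold higher (Pax2 and Gata3) and 3 were lower, with a median of -0.09. Ret, the receptor on the duct and bud, was at -3.06 in gated cells and -0.94 in GFP-negative cells, 4.36-fold lower, and Tfap2b, an AP-2 factor shared with neural crest and distal nephron, was at -2.29 against 3.61, 59.6-fold lower. The duct genes Wnt9b and Cdh16 differed by -0.01 and -0.31. Among 16 measured tubule and podocyte genes 1 was 2-fold higher, while Cdh6 and Synpo were 2-fold lower. Nphs1, which encodes the slit-diaphragm protein nephrin, differed by -0.16. Cubn, Aqp1, Hnf4a, Umod and Slc12a1 were well above background on neither array.

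**Figure D2:**
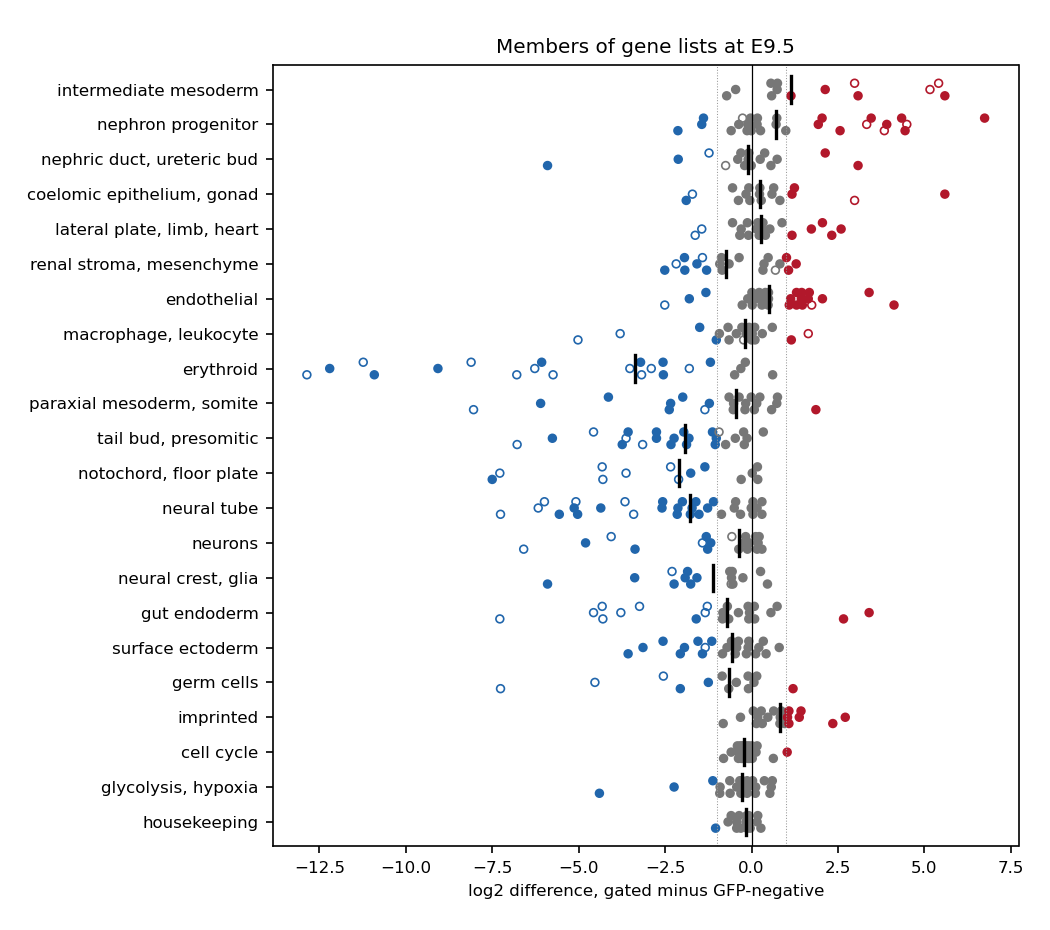
Log2 difference, gated minus GFP-negative, of each measured member of 22 gene lists; red and blue points are at least 2-fold higher and lower, open points are bounds, and the black bar is the median of the list. The intermediate mesoderm list has the highest median (1.14) and the erythroid list the lowest (-3.36), and the cell cycle and housekeeping lists lie near 0.

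Fgf9, a ligand of the nephrogenic mesenchyme, was at 1.42 in gated cells and -3.02 in GFP-negative cells, 21.8-fold higher. Fgf20, its close relative, was at 0.06 in gated cells and not well above background in GFP-negative cells (-6.51), at least 22.5-fold higher. Fgf10, better known from limb and lung mesenchyme, was higher by 2.32 on the log2 scale (0.56 against -1.76). Of 17 measured FGF ligands and receptors these 3 were at least 2-fold higher, and 2 were lower, among them Fgf15, a neural tube ligand, at -3.76 against -0.43. The receptors stayed close: Fgfr1 stood at 6.73 in gated cells and 6.49 in GFP-negative cells, and Fgfr2 at 0.47 and 0.20. Of 13 feedback and target genes that FGF signalling induces, 2 were at least 2-fold higher, Spry1 (1.36) and Etv5 (1.03), and none was 2-fold lower.

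Gdnf was at -0.59 in gated cells and not well above background in GFP-negative cells (-6.62), at least 14.3-fold higher, and its co-receptor Gfra1 was at -0.77 and not well above background (-4.11), at least 10.1-fold higher. Ret was lower, as given above, and Gfra3, a co-receptor of sensory and sympathetic neurons, was at -3.31 against 0.38. Thus the ligand and one co-receptor were detected with the gate while the signalling receptor was brighter on the GFP-negative array. The other ligands of the family, Nrtn, Artn and Pspn, differed by 0.01, 0.59 and -0.28.

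In the Wnt list 3 of 26 measured members were at least 2-fold higher and 5 lower, with a median of -0.25. Rspo1, a secreted enhancer of Wnt signalling, was at 3.15 in gated cells and -1.19 in GFP-negative cells, a 20.3-fold difference, whereas its paralog Rspo3 was at -1.16 against 1.59, 6.71-fold lower. Frzb, a secreted Wnt antagonist, was 9.32-fold higher (2.09 against -1.13). Sp5 and Axin2, transcriptional targets of the pathway, were lower, with log2 differences of -2.33 and -1.59. The 2 R-spondins therefore lay on opposite sides.

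Genes that make retinoic acid from vitamin A included some of the largest differences. Adh1, an alcohol dehydrogenase that can oxidise retinol, was at 3.02 in gated cells and -2.78 in GFP-negative cells, 55.9-fold higher. Rdh10, the retinol dehydrogenase that embryos depend on for the first step, was at 3.60 against -0.08, a 12.8-fold difference. Adh7, another retinol-oxidising dehydrogenase, was at -2.12 and not well above background in GFP-negative cells (-5.01), at least 4.96-fold higher. Aldh1a2, the enzyme of the second step in trunk mesoderm, did not differ by that size, with 3.09 in gated cells and 3.25 in GFP-negative cells. Lower in gated cells were the receptors Rarg (at least 7.06-fold) and Rxra (3.94-fold) and Cyp26a1, the enzyme that degrades retinoic acid (3.68-fold). Over the 20 measured members 3 were 2-fold higher and 5 lower, with a median of -0.27.

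Bmp4, a ligand of lateral plate and nephric mesenchyme, was at 4.16 in gated cells and 1.57 in GFP-negative cells, and Grem1, a secreted antagonist that allows ureteric bud outgrowth, at 0.62 against -1.73, 6.04-fold and 5.09-fold higher. The BMP target Msx2 was lower at 3.35 against 5.35. In the BMP and TGF-beta list 4 of 23 measured members were 2-fold higher and 4 lower. In the Notch list 1 of 17 was higher (Hey1, 5.33 against 3.95) and 8 were lower, with a median of -0.75. The lower Notch genes included Dll3, Lfng and Hes7, which belong to the somite clock, and Hes5, a neural target of the pathway at 1.70 against 6.73, 32.6-fold lower. In the hedgehog list Shh was not well above background in gated cells (-5.53) and at -0.29 in GFP-negative cells, and the target genes Ptch1 and Gli1 and the ligand Dhh were 2-fold lower. Hhip, an antagonist that the pathway induces, was 2-fold higher (1.18 on the log2 scale). That made 4 of 14 measured members lower and 1 higher, with a median of -0.02 (0.03 with normexp background correction).

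**Figure D3:**
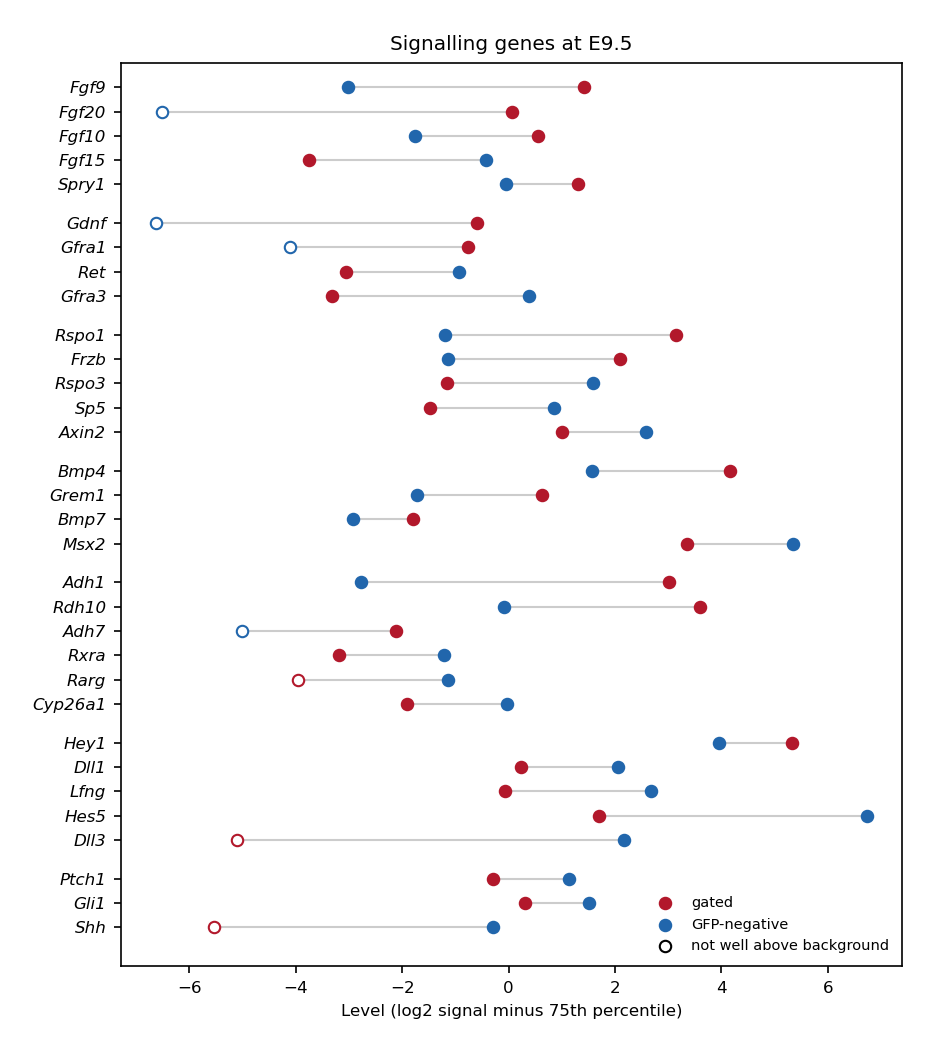
Level of ligands, receptors and targets of 7 pathways in gated (red) and GFP-negative (blue) cells, 1 array each; open points were not well above background. Fgf9, Fgf20, Gdnf, Gfra1, Rspo1, Adh1 and Rdh10 lie farther right in gated cells, and Fgf15, Ret, Gfra3, Rspo3, Rarg, Hes5, Dll3 and Shh in GFP-negative cells.

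Mesoderm outside the kidney fell on both sides. In the lateral plate, limb and heart list 5 of 20 measured members were at least 2-fold higher, among them Bmp4, Fgf10, the hindlimb factors Tbx4 (-1.66 against -3.71) and Pitx1 (-1.52 against -3.25), and Gata6. The forelimb and heart factors Tbx5 and Hand2 were not well above background in gated cells, and Gata4 and Nkx2-5 differed by -0.55 and 0.18. Of 17 coelomic epithelium and gonad genes 4 were higher (Wt1, Emx2, Nr2f2 and Gata6) and 2 lower (Pdpn and Zfpm2), while Nr5a1 and Upk3b, a steroidogenic factor and a mesothelial uroplakin, differed by 0.24 and -0.08.

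The list of renal stroma and general mesenchyme leaned the other way, with 3 of 20 members 2-fold higher and 7 lower and a median of -0.75. One of the lower members is Pdgfra, which the sort excluded, and without it 6 of 19 were lower with a median of -0.65. Ebf1, Tbx15, Zeb2 and Twist1 then had the largest negative differences, and Snai2, Nfib and Twist2 were the higher ones. Foxd1, the stromal progenitor factor of the kidney, was at 2.67 in gated cells and 3.52 in GFP-negative cells. Collagens and other fibrillar matrix genes fell on both sides, with 3 of 22 measured members 2-fold higher and 7 lower. Col1a1, Col1a2 and Col3a1 had log2 differences of -1.24, -1.08 and -1.20, and Col14a1 was at -0.80 and not well above background in GFP-negative cells, at least 12.4-fold higher. Among basement membrane and integrin genes, leaving out Itga8, 4 of 28 measured members were 2-fold higher and 3 lower. Lama4 was 7.54-fold and Itga6 4.48-fold higher, and Itgb8 and Itgb4 were lower. In the sarcomere and smooth muscle list 1 of 14 measured members was at least 2-fold higher and 2 were lower, the farthest by -2.13, with a median of 0.35. Desmin (Des), an intermediate filament of muscle and mesenchyme, was the higher one, by 6.77-fold (1.59 against -1.17). Acta1, Myh6 and Myh7 of striated muscle stayed within 2-fold. Since the samples are bulk RNA, fewer cells of a type and less RNA per cell cannot be told apart in this or any following list.

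Among somite genes more were lower than higher. Of 22 measured paraxial mesoderm genes 8 were at least 2-fold lower, 1 was higher and 13 stayed under 2-fold, with a median of -0.44. Pax1, a sclerotome factor, was not well above background in gated cells (-4.75) and at 3.42 in GFP-negative cells, at least 262-fold lower. Tcf15 (Paraxis), needed for epithelial somites, was at -3.31 against 0.83. Pax3 and Pax9 were 5.19-fold and 5.08-fold lower. Scx, a tendon progenitor factor, was the higher one, at 1.43 against -0.44, and Foxc1, Foxc2 and Meox1, which somites share with intermediate mesoderm, differed by 0.58, 0.75 and 0.73.

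Posterior growth-zone genes were lower still. In the tail bud and presomitic list 17 of 24 measured members were at least 2-fold lower and none was 2-fold higher, with a median of -1.92. Brachyury (T) was not well above background in gated cells (-6.21) and at -0.98 in GFP-negative cells, at least 12.4-fold lower. Cdx4, a caudal homeobox factor, was at -2.03 against 3.73, 54.1-fold lower, and Cdx2 was at least 23.7-fold lower. Dll3 was at least 110-fold lower, with -5.10 in gated cells against 2.17. Fgf8 and Cdx1 differed by 0.34 and -0.21 and were exceptions.

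The Hox genes showed no such block shift in the middle of the clusters. In paralog groups 5 to 8, 1 of 11 measured genes was 2-fold lower and none higher, with a median of 0.29, and in groups 9 and 10, 1 of 7 was lower with a median of 0.18 (-0.02 without scaling between arrays). In groups 11 to 13, 5 of 8 measured genes were lower with a median of -1.64, and in groups 1 to 4, 4 of 12 were lower and 1 higher with a median of -0.46. By cluster, 5 of 9 Hoxd genes were 2-fold lower, against 3 of 11 Hoxa, 3 of 9 Hoxc and 0 of 9 Hoxb genes. Hoxd13 was at -1.46 in gated cells and 0.76 in GFP-negative cells, and Hoxd12 at -1.73 against 0.11. Hoxc10 and Hoxa10, at the level of the hind trunk, were at 4.33 and 1.45 in gated cells against 4.19 and 1.28 in GFP-negative cells.

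**Figure D4:**
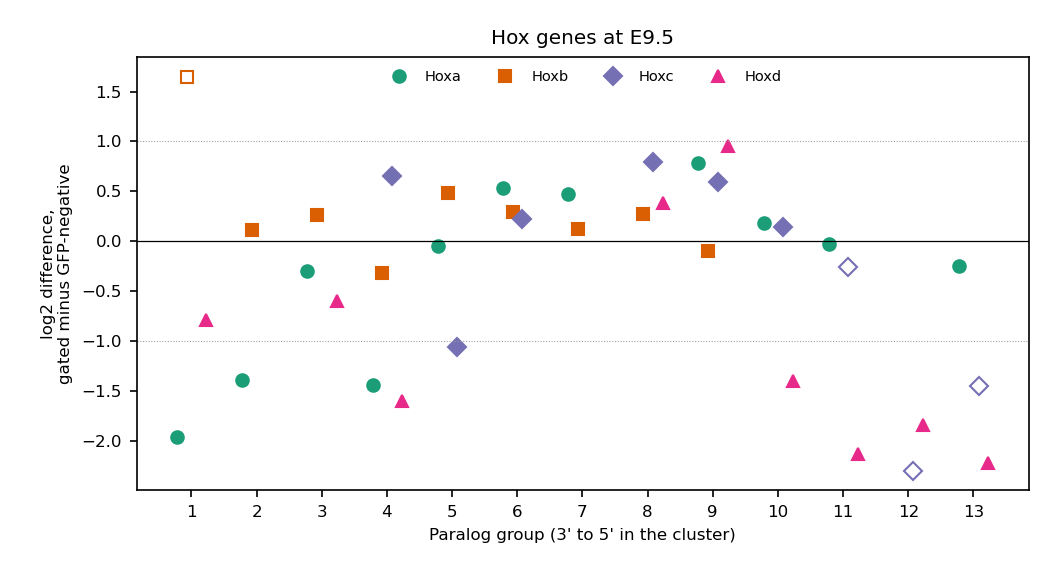
Log2 difference, gated minus GFP-negative, of the 38 measured Hox genes by paralog group, with colour and shape for the cluster and open points for bounds. Groups 5 to 10 lie mostly between -1 and 1, and Hoxd10 to Hoxd13 and Hoxc12 and Hoxc13 lie below -1.

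Neural tube genes were mostly lower. Of 31 measured neural tube genes 21 were at least 2-fold lower and none was 2-fold higher, with a median of -1.77. Sox2, a neural progenitor factor, was not well above background in gated cells (-6.37) and at 2.65 in GFP-negative cells, at least 153-fold lower. Sox3 was at -1.49 against 4.07, a 47.1-fold difference, and Mnx1 and Foxb1, of motor neurons and the dorsal neural tube, were at least 71.8-fold and 63.6-fold lower. Neurog2 was at least 33.8-fold lower and Zic2, at -2.67 against 2.46, was 35.0-fold lower. Sox21, Gbx2 and Cdh2 stayed under 2-fold, with differences of -0.01, 0.30 and -0.32.

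Of 19 neuronal genes 8 were lower, led by Nhlh2 (at least 96.1-fold) and Tubb3, a neuronal tubulin at 0.67 in gated cells and 5.46 in GFP-negative cells. Neural crest and glia followed with 8 of 16 lower and none higher: Tfap2b, then Ednrb at -1.53 against 1.85, Foxd3 and Sox10. In the notochord and floor plate list 9 of 13 were lower, with Foxa2 at least 155-fold (-4.16 in gated cells against 3.11), Shh by a log2 difference of -4.32 (a bound) and Foxa1 at least 19.7-fold. Lmx1a, a roof plate factor that is counted in this list, was its farthest member, 181-fold lower at -3.78 against 3.72. Chrd, Noto and Nog, also on that list, differed by 0.02, 0.17 and 0.18.

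Epithelial lists held more lower than higher genes. In gut endoderm 9 of 23 measured genes were lower (Foxa2, Cdx2, Shh, Foxa1 and Trh the farthest) and 2 were higher, Sox17 and Hhex, which endothelium also expresses. Foxa2, Shh and Foxa1 were already counted in the notochord and floor plate list, and Cdx2 in the tail bud list. Over the 15 gut genes well above background on both arrays the median was -0.08. Epcam differed by -0.84 and the keratins Krt8 and Krt18 by -0.08 and -0.10. In surface ectoderm 9 of 23 were lower, with Dlx2, Perp and Krt5 the farthest, and none was 2-fold higher. Its 3 defining markers (Trp63, Grhl2 and Krt14) were all well above background on both arrays, and only 1 was 2-fold lower. Among germ cell genes 5 of 13 were lower and 1 higher. The farthest of the lower ones was Sox2, also counted in the neural tube list. Dppa3 (Stella), a germ cell gene, was not well above background in gated cells (-6.10) and at -0.08 in GFP-negative cells, at least 23.1-fold lower. It was the only 1 of the 3 defining markers that was 2-fold lower. The others, Nanos3 and Pou5f1, were well above background on both arrays and stayed under 2-fold.

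Endothelial genes leaned towards the gate. Of 28 measured members 13 were at least 2-fold higher and 3 lower, with a median of 0.49. Etv2, the ETS factor at the top of the blood and vessel programme, was at 0.33 in gated cells and -3.79 in GFP-negative cells, 17.4-fold higher, although its other probe gave a difference of 1.97. Sox17 was at -0.50 against -3.90, 10.6-fold higher, and Flt4, the lymphatic and venous VEGF receptor, was 4.13-fold higher. Of the 8 defining markers, all were well above background on the gated array and 7 on the GFP-negative array, and 4 were 2-fold higher (Tie1, Emcn, Cldn5 and Sox18). Kdr, Cdh5 and Pecam1 stayed under 2-fold, with 1.67, 0.45 and -1.48 in gated cells against 1.27, -0.03 and -1.70 in GFP-negative cells. Esm1, Gja5 and Gja4, of tip cells and arteries, were the lower ones. The summed signal of the 28 genes, relative to the 75th percentile, was 32.1 in gated cells and 18.7 in GFP-negative cells. The part of endothelial RNA in the other differences was not tested.

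Red cell genes gave the largest differences of all. Of 22 measured erythroid genes 18 were at least 2-fold lower in gated cells and none was 2-fold higher, with a median of -3.36, and their summed signal relative to the 75th percentile was 14.2 in gated cells and 1622 in GFP-negative cells. The embryonic beta-like globin Hbb-y was not well above background in gated cells (-4.12) and at 8.74 in GFP-negative cells, at least 7450-fold lower. Hbb-bh1, the other embryonic beta-like chain, was at -3.05 against 9.15, 4709-fold lower, and the embryonic alpha-like chain Hba-x was at least 2406-fold lower (-4.55 against 6.68). The alpha chains Hba-a2 and Hba-a1 were 1918-fold and 537-fold lower, and Hbb-bt was at least 276-fold lower. The promoters of the globin genes with an entry in the RefSeq table are shown because these genes carry the largest folds. Each run is the 250 bases before the annotated start, 5′ to 3′ on the strand of the gene (GRCm38.p6, Hbb-y at chr7:103853208-103853457 on the minus strand, Hba-x at chr11:32276350-32276599, Hba-a1 at chr11:32283422-32283671 and Hba-a2 at chr11:32296242-32296491 on the plus strand). Capitals mark GATAA (the core that Gata factors bind), CACCC (the core that Klf factors bind) and TATAA on either strand.
Hbb-y: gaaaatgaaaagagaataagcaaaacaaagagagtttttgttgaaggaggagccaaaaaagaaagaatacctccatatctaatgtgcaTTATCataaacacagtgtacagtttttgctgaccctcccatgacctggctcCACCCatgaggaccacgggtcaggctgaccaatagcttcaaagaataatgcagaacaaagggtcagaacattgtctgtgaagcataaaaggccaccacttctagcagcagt
Hba-x: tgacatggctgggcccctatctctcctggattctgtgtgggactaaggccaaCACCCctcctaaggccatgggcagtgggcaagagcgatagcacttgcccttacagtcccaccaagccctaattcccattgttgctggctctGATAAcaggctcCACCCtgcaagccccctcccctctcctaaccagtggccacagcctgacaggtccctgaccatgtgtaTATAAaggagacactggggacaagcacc
Hba-a1: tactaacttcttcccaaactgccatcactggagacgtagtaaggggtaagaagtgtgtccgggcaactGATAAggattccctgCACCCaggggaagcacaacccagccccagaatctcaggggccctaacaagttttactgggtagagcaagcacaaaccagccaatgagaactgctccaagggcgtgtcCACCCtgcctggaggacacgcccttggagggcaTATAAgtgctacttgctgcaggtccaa
Hba-a2: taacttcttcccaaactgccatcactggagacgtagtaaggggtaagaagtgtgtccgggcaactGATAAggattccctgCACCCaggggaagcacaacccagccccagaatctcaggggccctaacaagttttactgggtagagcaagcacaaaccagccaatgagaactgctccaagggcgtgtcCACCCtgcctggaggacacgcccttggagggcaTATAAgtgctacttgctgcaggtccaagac

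GATAA or its complement was found in all 4 of these windows, CACCC in all 4 and TATAA in Hba-x, Hba-a1 and Hba-a2. Over the erythroid list 13 genes had a promoter entry, and GATAA was found in 11 of them and CACCC in 12, beside 25.5% and 54.5% of all 27025 genes in the table, each gene counted if any of its promoters held the letters (over 32851 single promoters the shares were 22.6% and 52.0%). GATAA and CACCC share no base in these windows, and a match is a string of letters and not a measured site. The runs of Hba-a1 and Hba-a2 were identical over 247 bases after a shift of 3 bases. The transcripts of these copies are near-identical too, so a probe may have bound both and the 2 values are not independent.

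Transcription factors and other genes of red cells were lower too. Gata1, the erythroid zinc-finger factor, was not well above background in gated cells (-5.17) and at 1.13 in GFP-negative cells, at least 53.4-fold lower, and Klf1, another erythroid zinc-finger factor, was also not well above background in gated cells (-4.56 against -1.04). Slc4a1 (the band 3 anion exchanger) was 67.0-fold lower, and Ahsp (the alpha-globin chaperone) was at least 110-fold lower. Alas2, which starts haem synthesis, was at -0.07 against 3.14 and was detected in both populations. Lmo2, Nfe2, Sptb and Tal1 did not reach 2-fold. Of the 6 defining erythroid markers, 2 were well above background in gated cells and all 6 in GFP-negative cells. The carbonic anhydrase Car2, which red cells share with other tissues, was 42.0-fold lower (-3.41 against 1.98).

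Leukocyte genes gave no shared direction, with 2 of 20 measured members 2-fold higher and 4 lower. Pf4, a platelet and macrophage chemokine, was not well above background in gated cells (-6.07) and at 0.41 in GFP-negative cells, and Tyrobp was also lower as a bound. Ptprc, the pan-leukocyte marker CD45, was at -1.78 in gated cells and -1.62 in GFP-negative cells, and Csf1r differed by 0.09.

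**Figure D5:**
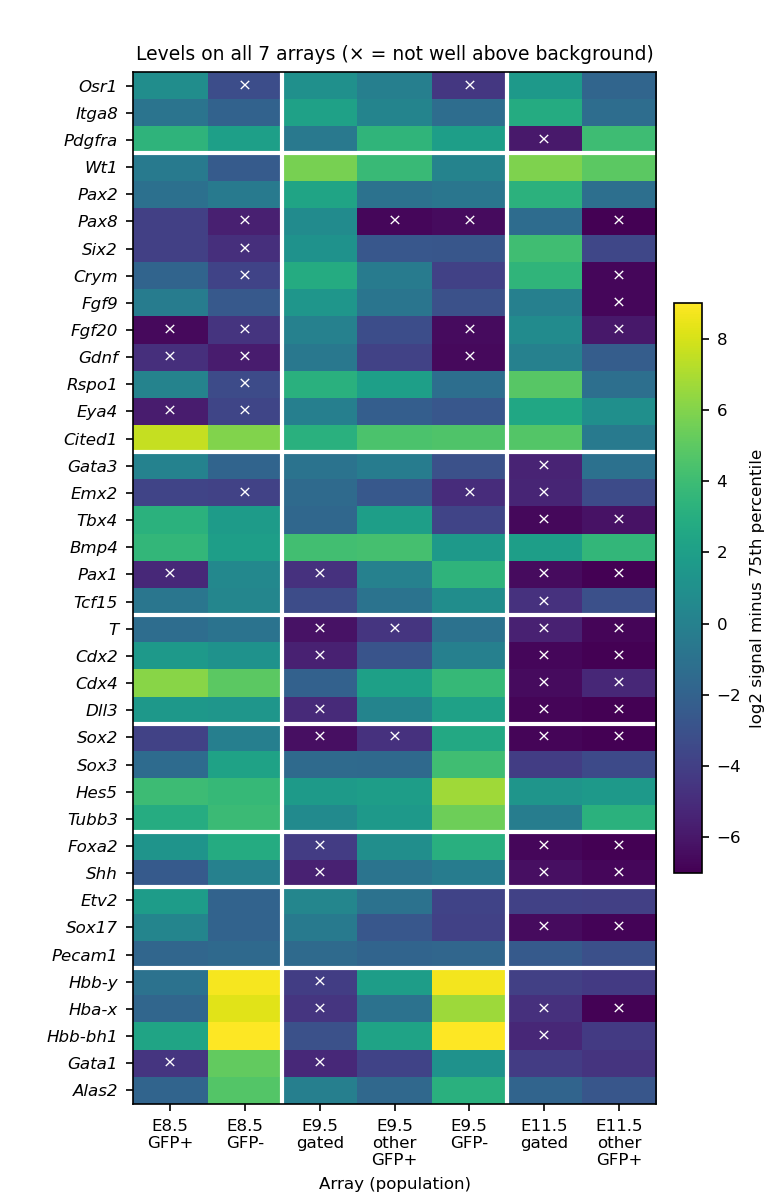
Level (log2 signal minus the 75th percentile, colour) of genes named in the text on the 7 arrays of the study, in order of stage; a cross marks a gene not well above background. The E9.5 gated array is the third column and the E9.5 GFP-negative array the fifth, and the globins are bright in both GFP-negative columns and dim in the gated ones.

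Several groups of housekeeping type were close. Of 26 cell cycle genes 1 was 2-fold higher and none lower, with a median of -0.20, and Mki67 and Pcna differed by -0.30 and -0.01. Of 16 housekeeping genes only Tfrc, the transferrin receptor, reached 2-fold (-1.04). In glycolysis and hypoxia 3 of 24 were lower, and they were the glucose transporters Slc2a3 (-0.67 against 3.72, 21.1-fold) and Slc2a1 (3.41 against 5.66, 4.74-fold) and the peptide Adm, while Gapdh, Aldoa and Pkm differed by -0.13, -0.27 and -0.34. Imprinted genes leaned to the gate: 7 of 20 were at least 2-fold higher and none lower, with a median of 0.82. Cdkn1c, a growth-restraining cell cycle inhibitor, was 6.52-fold higher (3.56 against 0.85), and Magel2, Igf2 and Dlk1 followed. Among immediate-early genes, which also respond to tissue dissociation, 5 of 18 were higher and 1 lower. Egr2 was at least 6.51-fold higher, Fos and Fosb differed by 1.11 and 1.38, and Egr1 and Jun by -0.22 and -0.17.

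Adhesion and guidance genes were mixed. Cldn11, a claudin, was higher in gated cells (4.89 against 1.64), and Unc5c, a netrin receptor, and Robo2, the Slit receptor that restricts the site of ureteric budding, were 8.06-fold and 5.30-fold higher. Epha3 was 15.5-fold lower (-3.94 against 0.02) and the cadherins Cdh1 and Cdh6 were 2-fold lower. Over the guidance list 5 of 28 genes were higher and 7 lower, and over the cadherin, claudin and polarity list 3 of 28 and 7.

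Some of the farthest genes belonged to no list. On the higher side, Plet1, a glycoprotein of the cell surface, was at 2.65 in gated cells and -2.74 in GFP-negative cells, 41.9-fold, though its other probe gave a difference of 1.63. Asic4, of the acid-sensing ion channel family, and Actn3, the alpha-actinin of fast muscle, were 15.5-fold and 12.3-fold higher. Lamtor1, an anchor of the Ragulator complex on lysosomes, was 40.6-fold higher, with 3.91 against -1.43. It stood between 3.81 and 4.29 on all 6 arrays other than the GFP-negative one of E9.5, so this value rests on that 1 array.

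Genes detected in gated cells but not well above background in GFP-negative cells included Ntsr1 (a neurotensin receptor, at least 104-fold), Clec10a (a lectin known from macrophages and dendritic cells, at least 74.0-fold), Trpv5 (a calcium channel of the distal nephron, at least 36.1-fold), Colec10 (a collectin, at least 24.2-fold) and Olfr397 (an olfactory receptor, at least 57.2-fold). The other Ntsr1 probe gave a difference of 0.68. Trpv5 and Olfr397 were well above background on the gated array of E9.5 alone among the 7. Clec10a was at 1.78 on it and at 2.21 on the gated array of E11.5.

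On the lower side, the metallothionein Mt2 was 115-fold lower (-1.36 in gated cells against 5.48) and Fgfbp3, a secreted FGF-binding protein, 79.4-fold lower. Aqp3, a water and glycerol channel, was 59.0-fold lower and Srrm4, a neural splicing factor, 46.4-fold lower. Prdm8, a factor of neural tissue, was not well above background in gated cells and at 2.66 in GFP-negative cells, at least 155-fold lower. Clone identifiers without a gene name made up 66 of the 256 higher and 58 of the 404 lower genes and are not named here.

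The promoter of Six2 is shown because Six2 is the best-known factor of nephron progenitors among the higher genes. Whether Wt1 or an Egr factor acts on Six2 was not tested. Capitals mark a match to GCGNGGGNG, the type of element that Wt1 and Egr factors bind, in the 250 bases before the start (GRCm38.p6, chr17:85688255-85688504, minus strand, RefSeq).
Six2: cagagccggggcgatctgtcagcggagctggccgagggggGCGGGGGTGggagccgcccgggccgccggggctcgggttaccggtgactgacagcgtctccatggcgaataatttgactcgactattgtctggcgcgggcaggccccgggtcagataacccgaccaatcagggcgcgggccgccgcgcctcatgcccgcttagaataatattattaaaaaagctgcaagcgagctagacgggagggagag

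The letters were found in 5 of the 20 nephron progenitor genes that had an entry (Six2, Sall1, Cited1, Eya4 and Phf19), in 3 of 8 intermediate mesoderm genes and in 0 of 13 erythroid genes, beside 11.8% of all genes counted the same way and 10.5% of single promoters. Of the 5, Six2 and Eya4 were at least 4-fold higher in gated cells and Cited1 was at least 2-fold lower, and Sall1 and Phf19 stayed under 2-fold. Nephron progenitor genes without a match also lay on both sides. Fgf9, Rspo1, Gdnf and Gfra1 were at least 4-fold higher, and Hoxd11 and Spock2 at least 2-fold lower.

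The GFP-positive cells of E9.5 outside the gate, whose array lay on the other slide, were read for levels only. Of the 256 higher genes they stood between the gated and GFP-negative levels for 205, below both for 32 and above both for 19. Of the 404 lower genes they stood between for 295, below both for 74 and above both for 35. All these genes were chosen for lying at least 4-fold apart on the 2 arrays, so a level in between is likely for any other array. The same count over all genes was not made, and whether these cells are an intermediate population was not tested. Wt1 was at 5.73 in gated cells, 3.83 in the remaining GFP-positive cells and 0.13 in GFP-negative cells. Rspo1 took the same order with 3.15, 2.05 and -1.19. Pax8 and Six2 instead stood with GFP-negative cells, at -6.70 and -2.63 in the remaining GFP-positive cells. Hbb-bh1 had levels of -3.05, 2.27 and 9.15 in the same order of populations. Pdgfra was highest in the remaining GFP-positive cells, at 3.44, and Tbx4 also, at 1.97.

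Comparisons at other stages that use none of these arrays were set beside it. At E8.5 the contrast was GFP-positive against GFP-negative cells with no Itga8 or Pdgfra gate, and only 56.2% of spots on that GFP-negative array were well above background. Among 19353 genes measured in both contrasts, 20 were at least 4-fold higher in both, 10.1% of the 199 at E9.5 and 11.4% of the 175 at E8.5. At least 4-fold lower in both were 89, 26.3% of 339 and 23.1% of 386. Wt1 and Etv2 had differences of 1.97 and 3.77 at E8.5 and Rspo1, not well above background in GFP-negative cells there, one of at least 3.50, while Hba-a2, Hba-a1 and Lmx1a had -8.74, -9.11 and -7.69. On opposite sides stood 9 genes higher in the gate at E9.5 and lower at E8.5 (4.5% of 199, 2.3% of 386). Another 9 were lower in the gate and higher in GFP-positive cells of E8.5 (2.7% of 339, 5.1% of 175). Hoxd13, Irx3 and Tnnt2 were among the latter. Of all 19353 genes, 175 passed 4-fold upwards at E8.5 and 386 downwards. The overlaps were larger shares than these, on the same side and on opposite sides alike.

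At E11.5 the contrast was the same gate against the remaining GFP-positive cells, so that both sides were GFP-positive. Among 20325 genes measured in both, 58 were at least 4-fold higher in both contrasts, 25.2% of the 230 at E9.5 and 13.7% of the 424 at E11.5, and 61 were lower in both, 19.8% of 308 and 10.1% of 603. Six2, Rspo1 and Pax2 had differences of 7.68, 6.01 and 4.44 there, and Crym, not well above background in the remaining GFP-positive cells, one of at least 8.48. On opposite sides stood 25 genes, higher in the gate at E9.5 and lower in it at E11.5 (10.9% of 230, 4.1% of 603). Gata3 was among them (-4.11 at E11.5, a bound). Another 35 went the other way (11.4% of 308, 8.3% of 424), among them Pax9 (3.42, a bound), Lfng (2.94) and Rspo3 (2.40). Of all 20325 genes, 424 passed 4-fold upwards at E11.5 and 603 downwards. Here too the overlaps were larger shares than these, on the same side and on opposite sides alike. Why genes recurred between the contrasts was not tested.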

How the data were processed

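The deposited intensity of each spot is the processed signal of the authors' extraction, for which the submitters' processing notes name Agilent Feature Extraction 10.7.3.1. It is background-subtracted and detrended on the linear scale, and the lowest spots hold a surrogate; arrays were not scaled to each other, per the file headers. Sorted cells gave total RNA, of which 10 ng was amplified and labelled with Cy3, per the labels' protocols. Of the 59305 spots that are not controls, 136 (gated) and 160 (GFP-negative) flagged as uneven or as outliers were left out, and 5236 and 5710 held a surrogate. Levels were log2 intensity minus log2 of each array's own 75th percentile of intensity, 262.4 (gated) and 300.0 (GFP-negative). Spots of a probe were averaged, and of several probes for a gene the brightest on average across all 7 arrays was used. Of 55681 probes, 26425 took their symbol from a RefSeq table and 8933 from the array files. Probes counted as well above background when 0.5 or more of their spots carried that mark of the extraction software.

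Named were, per direction, the 15 largest differences measured on both arrays and the 10 brightest bounds, at 4-fold or more and with no other probe over 1 log2 unit on the opposite side, clone names aside; a few of them are not reported here. From 43 gene lists of 737 symbols (734 on the array) members were counted from 2-fold. Lists share members. The members and lists were chosen with earlier results of these data known, and many list examples were picked after their values were seen. Alternatives covered scaling, background correction (normexp, offset 50, in limma 3.58.1 under R 4.3.3), filters, probe choice and the fold threshold. The steps were tested on simulated data. Tables were handled with Python 3.11.15 and pandas 2.3.3. Promoters came from a RefSeq table (GRCm38.p6), and probe coordinates are those of the array files (mm9).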

Additional observations from a re-analysis of the deposited data

How the results depend on the processing

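The count of genes at least 4-fold higher in gated cells was 256, and that of genes at least 4-fold lower 404. They became 63 and 119 with normexp background correction, which raises dim signals, and 161 and 217 when only genes well above background on both arrays were kept. Without a filter or bound 550 were higher. At 2-fold the counts were 1219 and 1379. The other settings moved neither count by over 1.5 times. Without scaling between arrays the median of all genes was -0.18 and the split was 195 higher to 510 lower. Of 115 named genes past 4-fold, none changed side under any alternative that gave it a value. When only genes well above background on both arrays were kept, 44 of the 115 had no value. Under 4-fold fell 40 with normexp, 4 without scaling, 5 with the mean of all probes of a gene (Hoxd11, Itga6, Krt5, Olfr397 and Robo2, with differences of -1.64, 1.07, -1.57, 1.96 and 1.07) and 1 with the 75th percentile over detected probes. The median of 7 of 42 lists changed sign under some alternative, none larger than 0.18 in size. They were Hox groups 9 and 10, FGF, BMP and TGF-beta, hedgehog, Gdnf and Ret, collagens, and guidance. Some larger medians kept their sign but shrank under 1 setting or more. Notochord and floor plate went from -2.11 to -0.30, Hox groups 11 to 13 from -1.64 to -0.50 and Notch from -0.75 to -0.12. Gut endoderm went from -0.70 to -0.08 and nephron progenitor from 0.71 to 0.26. The erythroid median stayed between -3.98 and -2.55. No paired analysis was possible because each population has 1 array, and no replicate could be left out for the same reason. Signal over background limits the dim side, so 95 of the higher and 187 of the lower folds are bounds, and the spread between embryos and sorts is unknown.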

Other observations

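The array also carries 16181 probes for long non-coding RNAs that its files name by mm9 coordinates, which stand outside the gene comparison. Of these, 12244 were well above background on at least 1 of the arrays, and 136 (1.11%) were at least 4-fold higher in gated cells and 120 (0.98%) lower, with a median difference of 0.07. Bounds made up 63 of the higher and 64 of the lower ones, and only probes well above background on both arrays were ranked. The farthest lower one of those ranked, at chr9:56910620-56919495 on the forward strand, was at -3.77 in gated cells and 1.53 in GFP-negative cells, a log2 difference of -5.29. Next came 3 probes of 1 locus, chr8:67542714-67561694 on the forward strand, which were 38.4-fold, 38.1-fold and 33.9-fold lower. The farthest higher one of those ranked, at chr9:39982939-39992189 on the forward strand, was at 0.86 in gated cells and -3.43 in GFP-negative cells, 19.6-fold.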
